A study of Salmo salar with 40 samples.

Results

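The genes described here, in the liver of Atlantic salmon (Salmo salar), have names of families that make, coat, enlarge and break down triglyceride stores. They were found by name among 79140 gene entries of the deposited count table: glycerol-3-phosphate, 1-acylglycerol-3-phosphate, 2-acylglycerol and diacylglycerol acyltransferases, lipins, perilipins, CIDE proteins, fat storage-inducing proteins and patatin-like phospholipases. Of 87 entries with such a name, 14 held the word lipin only inside another one (cardiolipin, mucolipin, plasmolipin or sarcolipin) and were set aside, which left 73 members. None of the 73 was a lipin proper, because the salmon lipin genes are listed as phosphatidate phosphatases; they were followed in a separate list. Of the 73 members, 51 had enough reads to be tested and 3 had no read in any fish. Members are grouped by name, and what each one acts on in salmon was not tested.

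Triglyceride is built on glycerol 3-phosphate. Glycerol-3-phosphate acyltransferases (GPAT) add the first fatty acid, 1-acylglycerol-3-phosphate acyltransferases (AGPAT) the next, a phosphatase removes the phosphate, and diacylglycerol acyltransferases (DGAT) add the last. Monoacylglycerol acyltransferases (MOGAT) reach diacylglycerol by another route, which in mammals is best known from the gut. The product collects in lipid droplets, whose surface carries perilipins and CIDE proteins, and patatin-like lipases release the fatty acids again. The liver stores fat in this way for its own use and for export in lipoproteins.

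Liver messenger RNA of 40 fish was sequenced, 10 in each of 4 groups. Exposed fish of day 8 had received 5 mg of lufenuron per kg and were sampled 1 day after treatment ended, beside control fish of day 8 at a dose of 0. Exposed fish of day 14 had received the same dose and were sampled 7 days after treatment ended, beside control fish of day 14 at a dose of 0. Lufenuron, a benzoylurea, blocks chitin synthesis in arthropods and is given against sea lice; each library is 1 fish, and neither strain, sex, age nor tank is given. P-values therefore measure the spread between these fish, and a difference between tanks would be part of a difference between groups. Control fish 6, 7 and 10 of day 14 were light, at 18, 18 and 17 g, where the other controls of that day weighed 42 to 67 g. Their labelled lengths were 11.9, 16.5 and 15.4 cm, where the other controls of that day measured 15.9 to 18.8 cm. Fish 7 and 10 were thus light for their length, and whether these 2 weights are right could not be tested. Exposed fish of day 14 weighed 35 to 66 g. At day 8 control fish weighed 34 to 42 g and exposed fish 34 to 44 g. Body weight thus also differed between the sampling days, and its part in the changes over time was not tested.

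The reads assigned to genes numbered 43.4 to 76.8 M per fish (median 56.7 M), so that 1 CPM (reads of a gene scaled to library size) stood for at least 41.8 reads. Together the members accounted for 0.0652% to 0.133% of each library. Hepatocyte markers such as albumin and fibrinogen summed to 56968 to 110211 CPM, so the liver label was borne out in every fish. Other tissue was also present: pancreas markers summed to over 50 CPM in 4 exposed and 1 control fish of day 8, and in 5 exposed and 1 control fish of day 14. Gut epithelium markers summed to 163 CPM in exposed fish 3 and to 31.4 CPM in exposed fish 10 of day 8, against at most 10.6 CPM in the controls of that day.

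At day 8, 4 of the 51 measured members differed between exposed and control fish, 3 higher and 1 lower, in edgeR's quasi-likelihood test with Benjamini-Hochberg adjustment over all 30397 genes at a threshold of 0.05. That is 7.84% of the members, where 1.63% of all genes were called. The members were chosen with earlier results of these data known, and the choice names the DGAT2-like gene LOC106567948. The 2 shares are therefore not an independent comparison. A DGAT2-like gene, a gene with an AGPAT name and a CIDE-3-like gene rose, and another gene with an AGPAT name fell. The median log2 fold change of the members was 0.068, close to 0.0052 over all genes, and 28 members were above 0 and 23 below. In bulk liver a change in the RNA of a cell and a change in the share of cells that hold it cannot be told apart.

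**Figure D1:**
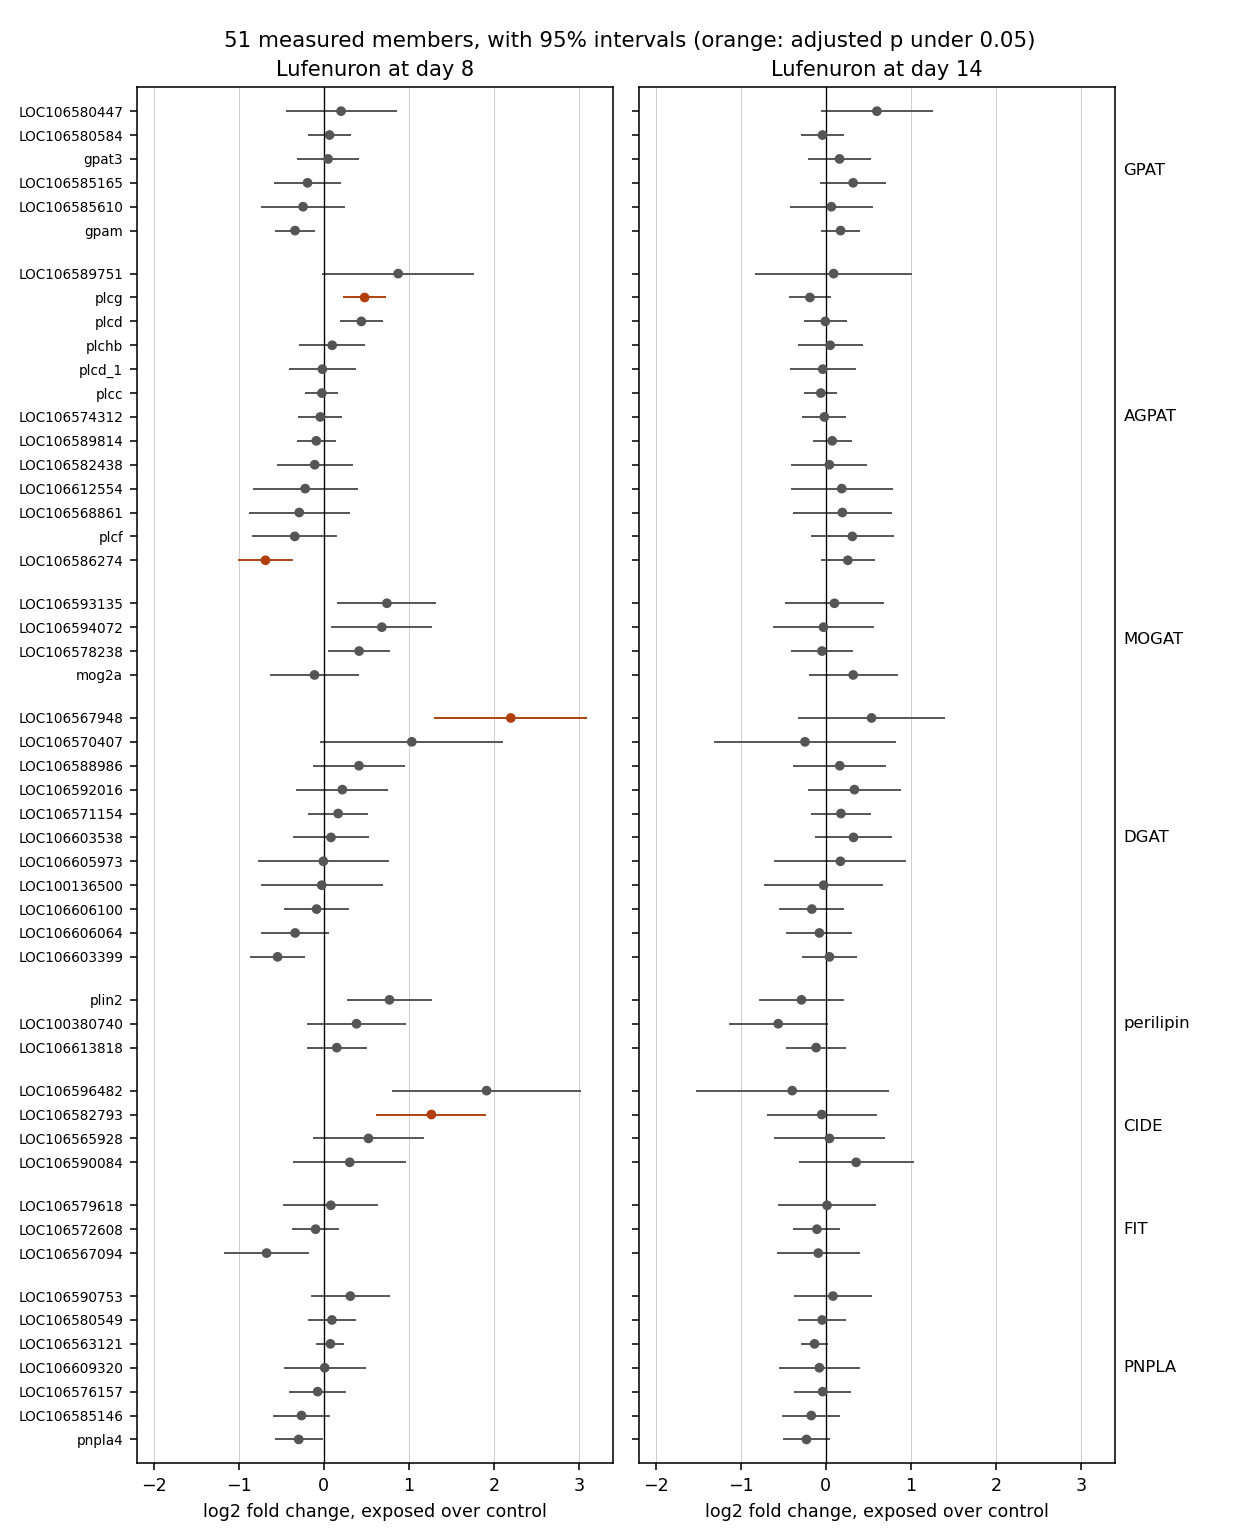
Log2 fold change of exposed over control fish for the 51 measured members at day 8 (left) and day 14 (right), by role, with 95% intervals (n = 10 fish per group); orange points had an adjusted p under 0.05. The 4 orange points are all at day 8, and the highest is LOC106567948 at 2.20; at day 14 the values lie between -0.56 and 0.60.

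The largest log2 fold change belonged to a gene named for the last step of triglyceride synthesis. Of the 11 measured DGAT genes 10 were not called at day 8 and 1 was (9.09%, where 1.63% of all genes were called). The median of the 11 was 0.085. LOC106567948, one of 3 measured DGAT2-like genes, lay between 22.1 and 313 CPM in exposed fish of day 8 (median 79.1), against 8.70 to 59.3 CPM in control fish (median 16.6). All 10 exposed fish were above the control median, although the ranges overlapped: exposed fish 3, 7, 6 and 8 were below control fish 10, the highest control. The log2 fold change was 2.20 ± 0.44 (SE, adjusted p = 0.0127, edgeR quasi-likelihood test), with a mean of 97.5 ± 86.0 CPM in exposed fish and 21.2 ± 15.4 CPM in controls (SD, n = 10 each). Exposed fish 10 had the highest level of all 40 fish, and without it the log2 fold change was 1.78 (adjusted p = 0.0258). The call held with each single fish left out, at 1.78 to 2.51.

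Its namesakes did not share this pattern. LOC106603538, also DGAT2-like, lay at 36.2 to 129 CPM in exposed fish (median 101) and at 44.4 to 145 CPM in control fish (median 84.5), with a log2 fold change of 0.08 ± 0.22 (95% interval -0.37 to 0.54). LOC106603399, the third, was at 0.871 to 2.39 CPM in exposed fish and at 1.59 to 3.39 CPM in controls. Every exposed fish (10 of 10) lay under the median of the controls, but its log2 fold change of -0.54 ± 0.16 did not pass (adjusted p = 0.0664). Both entries named DGAT2 pseudogene, LOC106571154 and LOC106592016, were well expressed, with exposed fish at a mean of 32.1 and 44.4 CPM and controls at 28.6 and 38.2 CPM. Their log2 fold changes were 0.17 and 0.22 (adjusted p = 0.697 and 0.750), and the RefSeq table of the assembly Ssal_v3.1 lists both as protein coding.

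**Figure D2:**
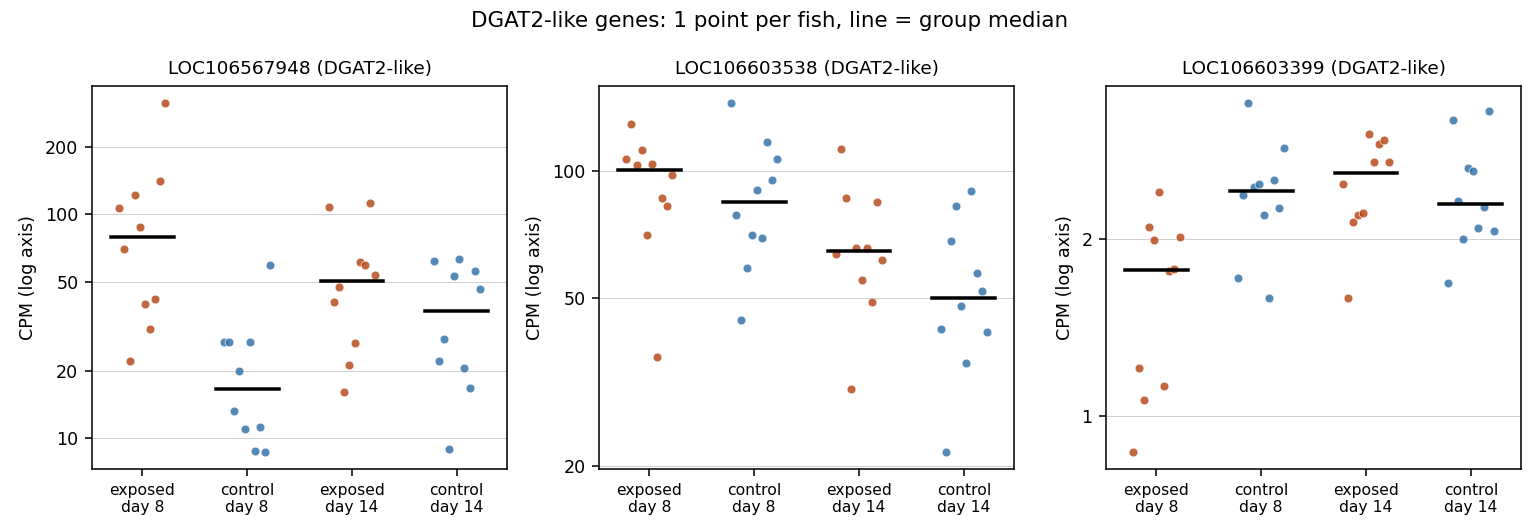
CPM of the 3 measured DGAT2-like genes on log axes, 1 point per fish and a line at the group median, for exposed and control fish of day 8 and of day 14. In LOC106567948 the exposed fish of day 8 (median 79.1 CPM) stand above most controls of that day (median 16.6 CPM), while in LOC106603538 the medians are 101 and 84.5 CPM.

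The 6 measured DGAT1 and DGAT1-like genes, which encode the other and structurally unrelated DGAT enzyme, were not called at day 8. LOC106570407 had the highest fold change among them (log2 1.03 ± 0.53, adjusted p = 0.335), and exposed fish 7 alone had 31.9 CPM, where the other exposed fish lay at 0.702 to 5.94 CPM and the controls at 0.807 to 5.60 CPM. It is singled out here after its values were seen. The lowest was LOC106606064 at -0.34 ± 0.20 (adjusted p = 0.415).

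Among 4 measured MOGAT genes, 3 had an unadjusted p under 0.05 at day 8 (75%, beside 16.1% of all genes). These 3 had positive log2 fold changes, and none of the 4 was called. LOC106594072 (MOGAT1-like) lay at 18.7 to 66.3 CPM in exposed fish (median 36.2) and at 5.54 to 43.4 CPM in control fish (median 24.3), a log2 fold change of 0.68 ± 0.29 (adjusted p = 0.228). LOC106593135 (MOGAT2-A-like) gave 0.74 ± 0.29 (adjusted p = 0.173). These 2 genes may not be separate measurements. The ratio of their CPM stayed between 1.72 and 2.67 over all 40 fish, and within groups they correlated at r = 0.99. Whether their sequences share reads was not tested.

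LOC106567949, another MOGAT2-A-like entry, is the direct neighbour of LOC106567948 in the assembly Ssal_v3.1. It fell below the read filter and had at most 0.767 CPM in 9 of the 10 exposed fish of day 8 and 5.71 CPM in exposed fish 3, the fish with the most gut markers. Among the 10 exposed fish of day 8, LOC106567948 was lowest in fish 3 (22.1 CPM) and highest in fish 10 (313 CPM), the fish with the second highest sum of gut markers. Over the 40 fish, centred on their group means, the log2 level of LOC106567948 correlated with the gut markers at r = 0.048 and with the pancreas markers at r = 0.084. The permutation p of r was 0.800 and 0.617 (adjusted over 11 relations 0.880 and 0.754). Spearman's rho was 0.15 and 0.098 (permutation p = 0.382 and 0.562, adjusted 0.548 and 0.659). Without the 2 outermost fish r was -0.046 and 0.032. Within day 8 r was -0.14 with the gut markers and 0.25 with the pancreas markers. Within day 14 it was 0.42 and -0.061. With the MOGAT1-like gene LOC106594072, LOC106567948 correlated at r = 0.47 and rho 0.53 (permutation p = 0.00365 and 0.00114, adjusted 0.0100 and 0.00418). With LOC106603538, LOC106582793 and the adipocyte markers r was 0.13, -0.16 and -0.023 (adjusted permutation p = 0.600, 0.523 and 0.892).

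Of 13 measured genes with an AGPAT name, 1 rose and 1 fell at day 8 (15.4%, where 1.63% of all genes were called). The members were chosen with earlier results known, so these shares are not an independent comparison. Roles here follow the gene names, and what each enzyme acts on was not tested. The gene plcg, annotated as the eta form, rose: it lay at 67.9 to 137 CPM in exposed fish (median 92.2) and at 57.0 to 83.9 CPM in control fish (median 64.6). All 10 exposed fish were above the control median and the ranges overlapped. The log2 fold change was 0.48 ± 0.12 (SE, adjusted p = 0.0363, edgeR quasi-likelihood test).

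LOC106586274, one of 3 measured genes similar to the gamma form, fell. It lay at 1.91 to 3.36 CPM in exposed fish (median 2.34) and at 2.67 to 5.85 CPM in control fish (median 3.36), and 10 of 10 exposed fish lay under the median of the controls. Its log2 fold change was -0.69 ± 0.16 (adjusted p = 0.0227). The gamma gene plcc, the AGPAT of this form with the most reads, was at -0.02 ± 0.10 (95% interval -0.22 to 0.17), and the other gamma-like genes LOC106574312 and LOC106582438 were at -0.04 and -0.11.

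The delta form plcd was at 0.44 ± 0.13 and just missed the threshold (adjusted p = 0.0575), with a mean of 42.5 CPM in exposed fish and 31.3 CPM in controls. LOC106589751, similar to the delta form, was at 0.87 ± 0.44 (adjusted p = 0.324), where exposed fish ranged over 0.237 to 2.65 CPM and control fish over 0.0367 to 1.22 CPM.

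No gene with a GPAT name was called at day 8, and of 6 measured, 1 had an unadjusted p under 0.05 (16.7%, beside 16.1% of all genes). That one, which also had the most reads, gpam, encodes the mitochondrial enzyme that opens the pathway in mammals. It lay at 125 to 211 CPM in exposed fish (median 149) and at 164 to 228 CPM in control fish (median 202). Although 9 of 10 exposed fish were below the control median, its log2 fold change of -0.34 ± 0.11 did not pass (adjusted p = 0.111). The other 5 measured GPAT genes lay between -0.24 and 0.20.

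On the droplet surface, LOC106582793 rose at day 8. It is CIDE-3-like, and in mammals this protein joins small droplets into larger ones. Exposed fish had 0.636 to 2.65 CPM (median 1.33) and control fish 0.163 to 1.57 CPM (median 0.493). All 10 exposed fish were above the control median, and control fish 4, 6 and 7 lay within the range of the exposed fish. The log2 fold change was 1.27 ± 0.32 (SE, adjusted p = 0.0320, edgeR quasi-likelihood test).

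The other CIDE genes had positive values that did not pass. LOC106596482, also CIDE-3-like, was at 1.91 ± 0.55 (adjusted p = 0.0583), and this value leaned on exposed fish 8 at 4.07 CPM: the other 9 exposed fish lay at 0.110 to 0.741 CPM and the controls at 0.0133 to 0.463 CPM. LOC106565928 (CIDE-3-like) and LOC106590084 (CIDE-A-like) were at 0.53 and 0.30 (adjusted p = 0.444 and 0.709). The 4 remaining CIDE entries were below the read filter.

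**Figure D3:**
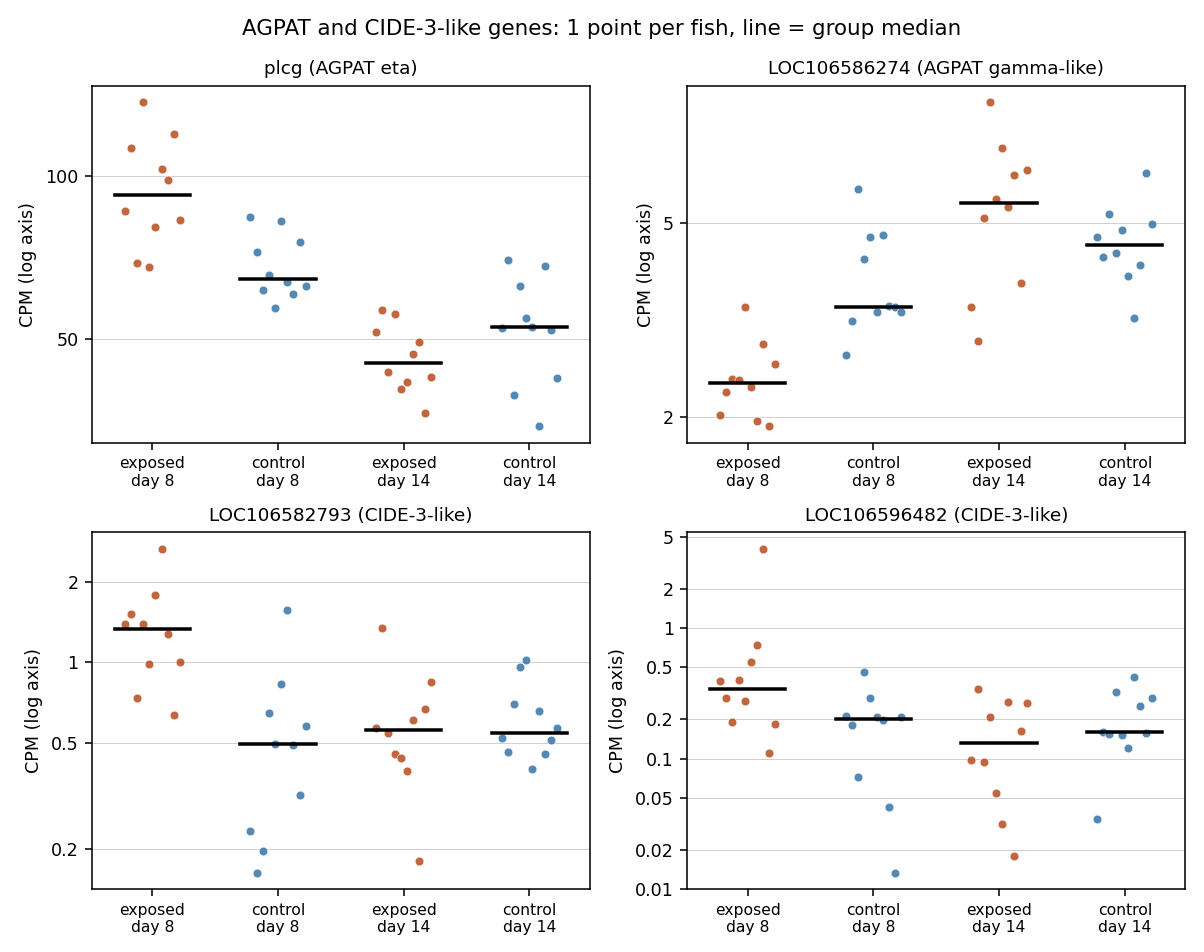
CPM of 2 AGPAT genes (upper row) and 2 CIDE-3-like genes (lower row) on log axes, 1 point per fish and a line at the group median, for exposed and control fish of day 8 and of day 14. Exposed fish of day 8 are high for plcg (median 92.2 against 64.6 CPM) and LOC106582793 (1.33 against 0.493 CPM) and low for LOC106586274 (2.34 against 3.36 CPM).

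Perilipin 2 coats the droplets of liver cells. Both measured copies had positive values at day 8 and neither was called. The copy plin2 lay at 23.1 to 78.6 CPM in exposed fish (median 45.5) and at 16.1 to 37.9 CPM in control fish (median 26.8), with 9 of 10 exposed fish above the control median and a log2 fold change of 0.77 ± 0.25 (adjusted p = 0.0936). It passed with DESeq2 (adjusted p = 0.0477) and when the fit was limited to the 20 fish of day 8 (adjusted p = 0.0358). LOC100380740 lay at 15.2 to 161 CPM in exposed fish and at 17.7 to 110 CPM in controls, a log2 fold change of 0.39 ± 0.29 (adjusted p = 0.548). Within groups, over the 40 fish, LOC100380740 correlated with the CIDE-3-like gene LOC106582793 at r = 0.58 and rho 0.36 (adjusted permutation p = 0.00176 and 0.0540). Without the 2 outermost fish r was 0.35. The perilipin-3-like gene LOC106613818 was at 0.15 ± 0.17. Perilipin 1, the coat protein of fat cells, was below the read filter, with 69 reads at most in a fish.

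Fat storage-inducing proteins help droplets to form at the endoplasmic reticulum, and none of the 3 measured genes was called at day 8. For 1 the unadjusted p was under 0.05 (33.3%, beside 16.1% of all genes). That one, LOC106567094 (FIT2-like), had 10 of 10 exposed fish under the median of the controls, with 1.98 to 4.08 CPM in exposed fish and 1.29 to 9.70 CPM in controls, but its log2 fold change of -0.67 ± 0.24 did not pass (adjusted p = 0.142).

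Of the 7 measured patatin-like phospholipase genes, 1 had an unadjusted p under 0.05 at day 8 (14.3%, beside 16.1% of all genes). None of the 7 was called, and their log2 fold changes lay between -0.29 and 0.31. They include PNPLA2, the main triglyceride lipase of mammalian cells. Its best covered copy, LOC106576157, was at 18.8 to 40.6 CPM in exposed fish and 14.8 to 40.1 CPM in controls, a log2 fold change of -0.07 ± 0.16 (95% interval -0.40 to 0.26).

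Markers of other tissue stood beside these results as follows. At day 8 the 38 listed exocrine pancreas markers, 16 of them measured, summed to 18.4 to 127 CPM in exposed fish (median 40.3). In control fish they summed to 9.62 to 97.5 CPM (median 22.4). Part of this sum was present in every fish of day 8: LOC106605684 (trypsinogen-like protein 3) lay at 9.36 to 19.1 CPM in exposed and 5.95 to 27.9 CPM in control fish. The sum of gut markers lay at 1.33 to 163 CPM in exposed fish (median 4.51) and at 1.01 to 10.6 CPM in controls (median 4.29). Of 6 measured gut markers 5 had positive log2 fold changes at day 8, with a median of 2.18 over the 6. For 4 the unadjusted p was under 0.05 (66.7%, beside 16.1% of all genes). The smallest adjusted p was 0.0579 (edgeR quasi-likelihood test). Of 8 listed adipocyte markers 5 were measured, and both leptin entries had no read in any fish. The sum of the listed ones had a median of 33.4 CPM in exposed fish and 27.4 CPM in controls. It came mostly from hormone-sensitive lipase entries, so it is not a measure of fat cells alone. One of these, lips, which is also in the list of droplet and lipase genes, had a mean of 14.6 CPM in exposed fish and 12.7 CPM in controls. Of the 5, 3 had positive log2 fold changes at day 8 and 2 negative ones. For 1 the unadjusted p was under 0.05 (20%, beside 16.1% of all genes), and none was called (smallest adjusted p 0.252, edgeR quasi-likelihood test). Adiponectin lay at 1.73 to 13.7 CPM in exposed fish (median 6.43) and at 0.359 to 7.97 CPM in controls (median 3.63). Of 4 skeletal muscle markers 1 was measured, and their sum reached 3.58 CPM at most in any fish.

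With the pancreas markers as a covariate, LOC106567948 (2.03), LOC106582793 (1.41) and LOC106586274 (-0.64) were still called at day 8 and plcg was not (0.46, adjusted p = 0.0691). With the gut markers as a covariate all 4 were called. Without the 11 fish over 50 CPM of pancreas markers, which leaves 6 exposed and 9 control fish at day 8, none of the 4 was called (adjusted p = 0.105 to 0.198), and neither was any other gene. The log2 fold changes were then 1.47 for LOC106567948, 1.43 for LOC106582793, 0.42 for plcg and -0.69 for LOC106586274. The exposed fish of day 8 left out were 10, 9 and 4, with the highest levels of LOC106567948 in that group, and 3, with the lowest. With total counts as the only scaling, plcg and LOC106582793 were not called, and in the fit limited to the 20 fish of day 8 LOC106582793 was not called (adjusted p = 0.0658).

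Single fish also bore on some of these calls. LOC106586274 was not called without control fish 3 of day 8 (adjusted p = 0.0578). LOC106582793 was not called without control fish 2, 3, 5, 8 or 9 or exposed fish 2, 4, 6 or 7 of day 8 (log2 1.10 to 1.26, adjusted p = 0.0511 to 0.0806). The call of plcg was lost without control fish 3, 4, 5, 7, 8, 9 or 10 or exposed fish 2, 4, 7 or 9 of day 8 (log2 0.41 to 0.48, adjusted p = 0.0528 to 0.0832).

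Genes around the pathway were read from 5 further lists at day 8. None of 37 tested genes that supply glycerol phosphate, acyl-CoA or diacylglycerol (lipins included) was called, and 9 had an unadjusted p under 0.05 (24.3%, where 16.1% of all genes did). LOC106613112, similar to acyl-CoA ligase 3, was at 1.62 ± 0.45 (adjusted p = 0.0512) and the glycerol kinase glpk3 at -0.89 ± 0.27 (adjusted p = 0.0770). None of 21 other droplet and lipase genes, of 19 regulators of fat storage or of 21 genes of fatty acid uptake and transport was called, where 3, 1 and 5 had an unadjusted p under 0.05 (14.3%, 5.26% and 23.8%, beside the same 16.1% of all genes). Of 6 tested lipoprotein assembly genes, 1 rose (16.7%, where 1.63% of all genes were called). It was LOC106569687, similar to TM6SF2, a membrane protein that in mammals helps to load lipid onto lipoproteins. It lay at 21.6 to 34.5 CPM in exposed fish (median 27.9) and at 14.3 to 22.0 CPM in control fish (median 18.4), a log2 fold change of 0.63 ± 0.14 (SE, adjusted p = 0.0176, edgeR quasi-likelihood test). The groups overlapped only between 21.6 and 22.0 CPM.

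At day 14, 7 days after treatment, no member was called in edgeR's quasi-likelihood test (0 of 51, where 0% of all genes were called), and none had an unadjusted p under 0.05, against 8.02% of all genes. DESeq2 called no member either, and 11 genes in all. The members' log2 fold changes lay between -0.56 and 0.60, with a median of 0.014.

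LOC106567948 was at 16.0 to 112 CPM in exposed fish of day 14 (median 50.5) and at 8.99 to 63.2 CPM in control fish (median 37.1), a log2 fold change of 0.54 ± 0.43 (95% interval -0.33 to 1.40, adjusted p = 0.792). For plcg, LOC106582793 and LOC106586274 the values were -0.19, -0.05 and 0.26, all with intervals that include 0. Both perilipin 2 copies had negative values, -0.29 for plin2 and -0.56 for LOC100380740 (adjusted p = 0.812 and 0.637). No gene of the 5 surrounding lists was called at day 14, where 4 supply, 3 droplet, 0 assembly, 2 regulator and 2 uptake genes had an unadjusted p under 0.05 (0% to 14.3% of a list, where 8.02% of all genes did).

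The effect of lufenuron at day 14 was then compared with that at day 8 in an interaction contrast. No member passed (0 of 51, where 0.0493% of all genes were called), although 10 members had an unadjusted p under 0.05 (19.6%, where 10.8% of all genes did). The smallest adjusted p, 0.0976, belonged to LOC106586274, whose difference was 0.94 ± 0.22 on the log2 scale. For LOC106567948 the difference was -1.66 ± 0.60 (95% interval -2.89 to -0.44, adjusted p = 0.281), so its rise at day 8 was not shown to differ from its value at day 14. The differences of the perilipin 2 copies were -1.06 for plin2 and -0.94 for LOC100380740 (adjusted p = 0.246 and 0.376). With DESeq2, and with total counts as the only scaling, 2 members passed.

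More members differed between the sampling days. In exposed fish 22 of 51 members differed at day 14 from day 8, 12 higher and 10 lower, which is 43.1% where 34.9% of all genes were called. With total counts as the only scaling, 18 were higher and 8 lower. In control fish 12 members differed, 7 higher and 5 lower, which is 23.5% where 19.3% of all genes were called. The called members make 9 in both comparisons, all in the same direction in both: 9 of the 22 in exposed fish and 9 of the 12 in control fish. Another 13 were called in exposed fish only and 3 in control fish only; over all genes, 15.1% were called in both, 19.8% in exposed fish only, 4.26% in control fish only and 60.8% in neither. The difference between these 2 changes is the interaction contrast given above, in which no member passed. The comparison of days in exposed fish shares the exposed fish of day 8 with the comparison of lufenuron at day 8. A gene high or low in that group moves in both, so the 2 are not independent results. Likewise, the comparison of days in control fish shares the control fish of day 8.

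**Figure D4:**
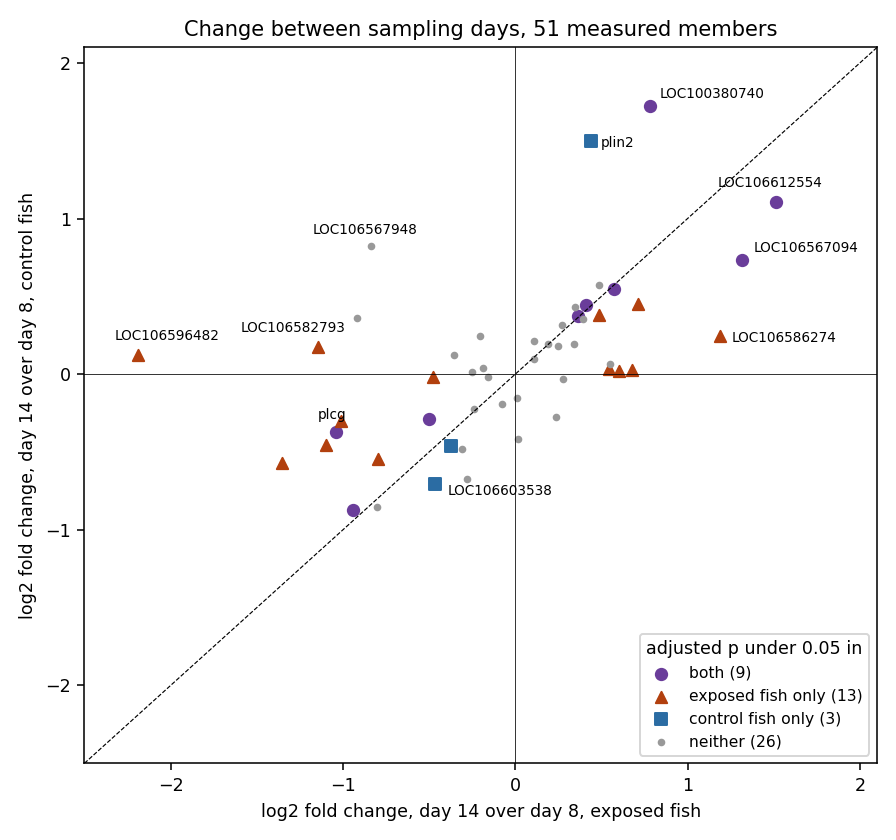
Log2 fold change of day 14 over day 8 in exposed fish (horizontal axis) and in control fish (vertical axis) for the 51 measured members; the dashed line marks equal change and the symbols show where the adjusted p was under 0.05. Of the members, 9 were called in both, 13 in exposed fish only, 3 in control fish only and 26 in neither; plin2 and LOC100380740 lie above the line, and plcg lies below 0 in both.

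The perilipin 2 copies had the largest rises in control fish. There plin2 lay at 27.7 to 133 CPM at day 14 (median 69.2) and at 16.1 to 37.9 CPM at day 8 (median 26.8), and all 10 fish of day 14 were above the median of day 8. The log2 fold change was 1.499 ± 0.252 (adjusted p = 6.22e-05, edgeR quasi-likelihood test). LOC100380740 lay at 84.2 to 179 CPM in controls of day 14 (median 138) and at 17.7 to 110 CPM in controls of day 8 (median 36.1), a log2 fold change of 1.72 ± 0.29 (adjusted p = 7.32e-05). Without the 3 light control fish of day 14 both were still called, at 1.26 for plin2 and 1.75 for LOC100380740.

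In exposed fish the same copies had smaller values. For plin2 it was 0.44 ± 0.25, which did not pass (adjusted p = 0.170), with 26.9 to 138 CPM at day 14 and 23.1 to 78.6 CPM at day 8. LOC100380740 rose by 0.78 ± 0.29 (adjusted p = 0.0315), a call lost without exposed fish 1, 2, 3, 8 or 9 of day 8 or 2 or 4 of day 14 (log2 0.66 to 0.74, adjusted p = 0.0515 to 0.0776). Within groups the copies varied together (r = 0.51, Spearman's rho 0.44, permutation p = 4.4e-04 and 0.00746, adjusted over 11 relations 0.00176 and 0.0205; r = 0.53 without the 2 outermost fish; 0.66 within day 8 and 0.49 within day 14).

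**Figure D5:**
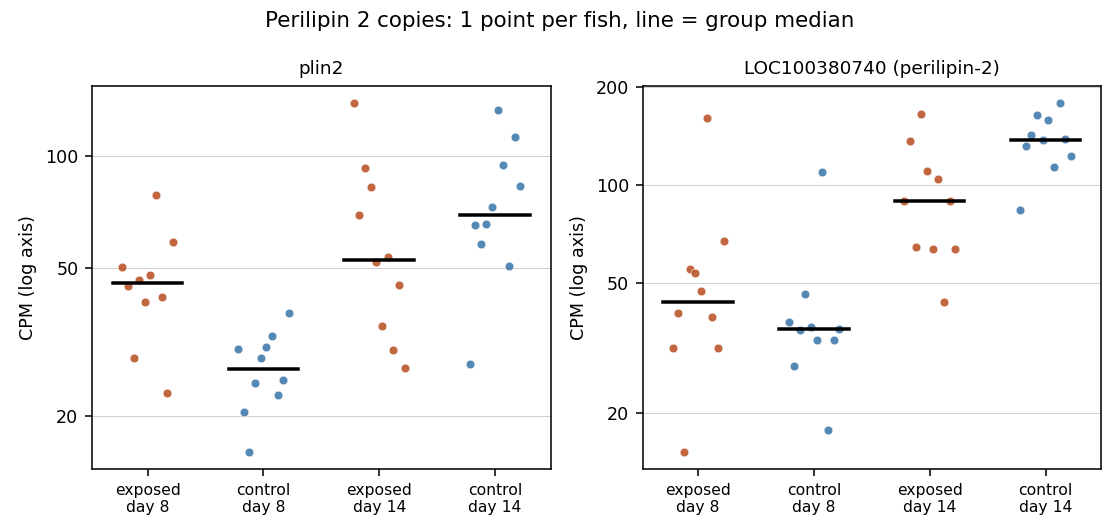
CPM of both perilipin 2 copies on log axes, 1 point per fish and a line at the group median, for exposed and control fish of day 8 and of day 14. The medians of day 14 controls (69.2 CPM for plin2, 138 CPM for LOC100380740) stand above those of day 8 controls (26.8 and 36.1 CPM), and exposed fish of day 14 have medians of 52.6 and 89.7 CPM.

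Genes with an AGPAT name moved in both directions between the days. Of 13 measured, 5 rose and 2 fell in exposed fish (53.8%, where 34.9% of all genes were called). In control fish 3 rose and 1 fell (30.8%, where 19.3% of all genes were called). The gene plcg fell: exposed fish of day 14 had 36.5 to 56.5 CPM and exposed fish of day 8 had 67.9 to 137 CPM, with no overlap (log2 -1.04 ± 0.13, adjusted p = 4.19e-08). In controls it was at 34.5 to 70.0 CPM at day 14 and 57.0 to 83.9 CPM at day 8 (log2 -0.37 ± 0.12, adjusted p = 0.0288). That control call was lost without control fish 1 or 6 of day 8 or 3, 7 or 10 of day 14 (log2 -0.34 to -0.32).

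Higher at day 14 in both kinds of fish were the gamma genes plcc (0.41 in exposed and 0.45 in control fish) and LOC106574312 (0.57 and 0.55), and LOC106612554, similar to the epsilon form (1.51 and 1.11). LOC106586274, the gamma-like gene that fell at day 8, rose in exposed fish by 1.19 ± 0.16 (adjusted p = 3.14e-07), with 2.86 to 8.83 CPM at day 14 and 1.91 to 3.36 CPM at day 8. In control fish its value was 0.25 ± 0.16 (adjusted p = 0.287). Its fall at day 8 and its rise in exposed fish rest on the same exposed fish of day 8.

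In exposed fish plcf, annotated as the zeta form, rose by 0.68, a call lost without exposed fish 6 of day 14 (adjusted p = 0.0574). LOC106589751, similar to the delta form, fell by 1.35 in exposed fish; without exposed fish 3 or 10 of day 8 the values were -1.04 to -0.97 (adjusted p = 0.0670 to 0.0785), and with the gut markers as a covariate -0.29 (adjusted p = 0.551).

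In exposed fish 2 of 6 measured genes with a GPAT name rose (33.3%, where 34.9% of all genes were called). None was called in controls, where 19.3% of all genes were. All 10 exposed fish of day 14 (204 to 266 CPM of gpam) were above the day 8 median of 149 CPM, a log2 fold change of 0.54 ± 0.11 (adjusted p = 2.75e-04), while controls had 145 to 307 CPM at day 14 and 164 to 228 CPM at day 8 (0.03 ± 0.11). For gpat3 the change was 0.49 ± 0.18 in exposed fish (adjusted p = 0.0333), lost without exposed fish 3, 6 or 7 of day 8 or 6 or 9 of day 14 (log2 0.43 to 0.47, adjusted p = 0.0524 to 0.0664).

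In exposed fish 3 of 4 measured MOGAT genes fell (75%, where 34.9% of all genes were called). None was called in controls, where 19.3% of all genes were. LOC106594072 lay at 12.0 to 29.0 CPM in exposed fish of day 14 and at 18.7 to 66.3 CPM in exposed fish of day 8 (log2 -1.01 ± 0.29, adjusted p = 0.00665), and LOC106593135, which tracks it, was at -1.10 ± 0.29. The third, LOC106578238, was at -0.48 ± 0.18 (adjusted p = 0.0334), a call that leaving out single fish ended in 9 cases, exposed fish 2, 6, 7 and 9 of day 8 and 3, 4, 6, 8 and 9 of day 14 (log2 -0.46 to -0.37), and that held in 8 of 11 other settings (adjusted p up to 0.237).

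Of 11 measured DGAT genes, 2 rose and 1 fell in exposed fish (27.3%, where 34.9% of all genes were called). In control fish 1 fell (9.09%, where 19.3% of all genes were called). In exposed fish LOC106603399 (DGAT2-like, 0.60 ± 0.16) and LOC106606064 (DGAT1-like, 0.71 ± 0.20) rose. LOC106588986 (DGAT1-like) fell by 0.79 ± 0.27 (adjusted p = 0.0192), but it was at -0.46 without exposed fish 3 of day 8 (adjusted p = 0.125), at -0.34 with the gut markers as a covariate (adjusted p = 0.291) and at 0.028 without the fish over 50 CPM of pancreas markers. In controls LOC106603538 fell by 0.70 ± 0.22 (adjusted p = 0.0226), with 21.6 to 89.7 CPM at day 14 and 44.4 to 145 CPM at day 8; without control fish 1 of day 8 the value was -0.60 (adjusted p = 0.0630). LOC106567948 was not called over time: its value was -0.84 ± 0.43 in exposed fish (adjusted p = 0.128) and 0.82 ± 0.43 in control fish (adjusted p = 0.179). In exposed fish it was -0.41 without fish 10 of day 8 (adjusted p = 0.469) and -0.092 without the fish over 50 CPM of pancreas markers (adjusted p = 0.922).

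Of 4 measured CIDE genes, 2 fell over time in exposed fish (50%, where 34.9% of all genes were called). None was called in controls, where 19.3% of all genes were. Both falls were among the 3 measured CIDE-3-like genes, LOC106582793 by 1.14 ± 0.32 (adjusted p = 0.00446) and LOC106596482 by 2.19 ± 0.55 (adjusted p = 0.00196). Without exposed fish 8 of day 8 the second value was -1.15 (adjusted p = 0.0491). The third, LOC106565928, was at -0.36 ± 0.32 (adjusted p = 0.412). In controls LOC106582793, LOC106596482 and LOC106565928 were at 0.17, 0.12 and 0.13, none called.

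All 3 measured fat storage-inducing genes were called in both kinds of fish, beside 34.9% of all genes in exposed and 19.3% in control fish. LOC106567094 (FIT2-like) rose by 1.32 in exposed and 0.74 in control fish, LOC106572608 (FIT2-like) by 0.36 and 0.37, and LOC106579618 (FIT1-like) fell by 0.94 and 0.87. The control calls were the less steady ones: with single fish left out, LOC106567094 was called in 35 of 40 fits (not without control fish 1 or 8 of day 8 or 2, 8 or 9 of day 14), LOC106579618 in 38 (not without control fish 8 of day 8 or 10 of day 14) and LOC106572608 in 14 (adjusted p up to 0.0942). In exposed fish LOC106572608 was called in 33 such fits (adjusted p up to 0.0693). Under the other settings tried, LOC106572608 was called in 7 of 11 in exposed fish (adjusted p up to 0.345) and in 5 of 11 in control fish (up to 0.171), and LOC106579618 in 7 of 10 in control fish (up to 0.103).

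Of 7 measured patatin-like phospholipase genes, 1 fell in exposed fish (14.3%, where 34.9% of all genes were called). In control fish 2 fell (28.6%, where 19.3% of all genes were called). LOC106563121, a PNPLA7 gene, fell by 0.50 ± 0.08 in exposed fish (adjusted p = 7e-06) and by 0.29 ± 0.08 in control fish (adjusted p = 0.00996). Exposed fish had 11.7 to 17.0 CPM at day 14 and 18.0 to 23.0 CPM at day 8, with no overlap. In mammals this enzyme acts on lysophosphatidylcholine rather than on triglyceride. A second PNPLA7 gene, LOC106585146, fell in controls by 0.46 ± 0.17 (adjusted p = 0.0469), a call held in 15 of 40 fits with single fish left out (adjusted p up to 0.106) and in 5 of 11 other settings (up to 0.190). The PNPLA2 copy LOC106576157 was at 0.39 in exposed and 0.36 in control fish and was not called in either.

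Genes of the lists around the pathway were also called between the days, to be read beside 34.9% of all genes in exposed fish and 19.3% in control fish. Of 37 supply genes, 14 rose and 2 fell in exposed fish (43.2%), and 13 rose and 2 fell in control fish (40.5%). LOC106578699, similar to lipin 2, rose by 0.76 ± 0.10 in exposed and 0.72 ± 0.10 in control fish, and LOC106570052, similar to lipin 1, fell by 2.27 ± 0.41 in exposed and 1.30 ± 0.40 in control fish. Lipins remove the phosphate before the DGAT step. Of 21 other droplet and lipase genes, 2 rose and 6 fell in exposed fish (38.1%), and 1 rose and 1 fell in control fish (9.52%). LOC106565122, similar to the lipase inhibitor G0S2, rose by 0.93 ± 0.32 in exposed and 1.49 ± 0.33 in control fish. Among the falls in exposed fish were lips, hormone-sensitive lipase (-0.32 ± 0.10), and LOC106595731, similar to ABHD5 (-0.70 ± 0.24). In control fish lips and LOC106595731 were at -0.07 and -0.28, and neither was called. LOC106569687, the TM6SF2-like gene, fell in exposed fish by 0.84 ± 0.14 (adjusted p = 1.08e-05) and was at 0.04 ± 0.14 in control fish (adjusted p = 0.858).

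Of 19 regulators, 2 rose and 4 fell in exposed fish (31.6%), and 2 rose and 3 fell in control fish (26.3%). The gene angl4, angiopoietin-related protein 4, an inhibitor of lipoprotein lipase, fell by 1.25 ± 0.24 in exposed and 0.95 ± 0.24 in control fish. LOC106606632, similar to SREBP1, an activator of lipid synthesis genes, was at 0.33 ± 0.15 in exposed fish (adjusted p = 0.0920) and rose in control fish by 0.60 ± 0.15. LOC106567405, similar to carbohydrate-responsive element-binding protein, was called lower in both, at -0.70 ± 0.17 in exposed and -0.73 ± 0.17 in control fish. LOC106562806, similar to CCAAT/enhancer-binding protein alpha, was called lower in exposed fish (-0.72 ± 0.17) and not called in control fish (-0.38 ± 0.17). Of 21 uptake genes, 3 rose and 3 fell in exposed fish (28.6%), and 1 rose and 1 fell in control fish (9.52%). LOC106613694, similar to lipoprotein lipase, rose by 1.93 ± 0.36 in exposed and 1.76 ± 0.35 in control fish.

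Beside these changes over time, 13 of 23 measured erythrocyte markers rose in exposed fish (56.5%) and 11 in control fish (47.8%), and none fell. Over all genes 34.9% were called in exposed fish and 19.3% in control fish. The sum of all 35 listed erythrocyte markers had a median of 2289 CPM in exposed fish of day 14 and 1434 CPM in exposed fish of day 8. In controls it was 2355 CPM at day 14 and 1575 CPM at day 8. In exposed fish 5 of 12 measured hepatocyte markers (41.7%) and 4 of 6 gut markers (66.7%) fell, beside the same 34.9% of all genes. The part of erythrocyte and hepatocyte markers in the members' changes was not tested. With the gut markers as a covariate, 18 members were called in exposed fish and 11 in control fish; the calls of LOC100380740, LOC106572608, LOC106588986, LOC106589751 and plcf in exposed fish were lost (adjusted p = 0.0526 to 0.551). Without the fish over 50 CPM of pancreas markers, 15 members were called over time in exposed fish and 6 in control fish. Lost in exposed fish were the calls of LOC106594072, LOC106593135, LOC106578238, plcc, plcf, LOC106589751, LOC106572608, LOC106588986 and LOC100380740 (adjusted p = 0.0566 to 0.957).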

How the data were processed

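Poly-A RNA of 40 salmon livers was sequenced, 1 library per fish, 10 fish per group. The deposited table holds raw counts, whole numbers of reads that were not normalized. Of tools, the submitters' processing notes list DESeq2, HTSeq, Cufflinks and HISAT2, with neither version nor role. Build, annotation and strand setting were not given in the sources, so antisense or overlapping genes and close copies may share reads. Members were matched by gene description, and 51 of 73 were found in the RefSeq table of Ssal_v3.1, which was used only for gene types and neighbours. No sequence table was at hand, so no sequence is shown.

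Counts were tested with edgeR 4.0.16 (limma 3.58.1, R 4.3.3): genes passed filterByExpr (min.count 10, min.total.count 15), TMM scaling, a robust quasi-likelihood fit with 1 mean per group over all 40 fish, 5 contrasts, and Benjamini-Hochberg adjustment over the 30397 genes kept, at 0.05. SE is the log2 fold change divided by the root of F, and CPM uses TMM-scaled library sizes. The common biological coefficient of variation was 0.371. Correlations used log2(CPM + 0.5), centred within groups, with 100000 resamples within groups. The fit was tested on simulated data.

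The members, the lists and the tests were chosen with earlier results of these data known; 5 pathway lists and 6 marker lists were matched by description, and after its levels were seen apolipoprotein A-IV was dropped from the gut list, since it was abundant in these livers; pprc1, a coactivator, was dropped from the regulators. Described with values are members called in any contrast, LOC106567948, the member with most reads in each role, and its namesakes. List genes were taken from up to 4 called ones per list and contrast by p, or up to 2 where none passed. Only some of these are described, so those named are not always the ones with the smallest p. Alternatives were RLE size factors, total counts, no filter, a mean of at least 1 CPM, DESeq2 1.42.0, only the 20 fish compared, the replicate block, pancreas or gut markers as a covariate, leaving out the 3 light control fish of day 14, and each fish left out in turn; leaving out fish over 50 CPM of pancreas markers was added after the data were seen. No 2 libraries agreed within sampling noise over 780 pairs (smallest chi-square per gene 50.4). Replicate numbers were taken to number fish only, which is an assumption. Of 60 same-numbered pairs, 10 had a correlation over 0.1, with a median of -0.013. Pairs with different numbers were not compared, so these values cannot show whether the numbers hold a pairing.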

Additional observations from a re-analysis of the deposited data

Results flagged for a closer look

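Single fish stood far from the other 9 of their group in 11 of 112 gene and group combinations examined (28 described members in 4 groups), by Dixon's ratio of the gap to the nearest fish over the whole range. Chance alone flags about 1 in 20 groups. In controls of day 8, LOC106589751 was lowest in fish 5 at 0.0367 CPM, plcf in fish 9 at 0.133 CPM, LOC106567094 in fish 1 at 1.29 CPM, and the paired MOGAT entries in fish 3, LOC106594072 at 5.54 CPM and LOC106593135 at 2.89 CPM. In the same group LOC106606064 was highest in fish 5 at 1.17 CPM and LOC100380740 in fish 7 at 110 CPM. In exposed fish of day 8, LOC106596482 was highest in fish 8 at 4.07 CPM and LOC106603538 lowest in fish 7 at 36.2 CPM. In exposed fish of day 14, LOC106567094 was lowest in fish 2 at 2.04 CPM, and in controls of day 14 LOC106574312 was highest in fish 7 at 27.7 CPM.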

How the results depend on the processing

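The count of members called at day 8, 4 in the reported test, was 2 with total counts as the only scaling, 9 with DESeq2 and 0 without fish over 50 CPM of pancreas markers, and lay between 1 and 8 with single fish left out. For the difference of the lufenuron effect between days, 0 in the reported test, it was 2 with total counts, 2 with DESeq2 and 0 to 1 with single fish left out. For day 14 against day 8 in control fish it was 12 in the reported test and 6 without fish over 50 CPM of pancreas markers. Without the 3 light control fish of day 14 it was 8 there, and 7 to 13 with single fish left out. In exposed fish it was 17 to 23 with single fish left out. One result reversed: LOC106588986, day 14 against day 8 in exposed fish, was at 0.028 without fish over 50 CPM of pancreas markers (adjusted p = 0.957); the causes of these shifts were not tested. With the replicate block, which pairs fish by number alone, 4 members were called at day 8, 0 at day 14, 0 for the difference, 23 over time in exposed and 11 in control fish.

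Over all genes, the count at day 8 was 494 (142 higher and 352 lower), and 556 with total counts (57 higher and 499 lower), 1043 with DESeq2, 231 with the replicate block, 262 with pancreas markers as a covariate, 0 without fish over 50 CPM of them, and 128 to 1246 with single fish left out. At day 14 it was 0, and 11 with DESeq2. For the difference it was 15, and 422 with total counts, 128 with DESeq2, 3 without the filter, 8 with the block, 1 with the pancreas covariate, 5 without the 3 light control fish, 0 without fish over 50 CPM of pancreas markers, and 0 to 104 with single fish left out. Total counts moved the median log2 fold change of all genes to 0.19 at day 14, 0.25 for the difference and 0.16 over time in exposed fish, so values under that scaling are relative to these shifts. Of 34 member calls over time, 21 held with each of 40 fish left out and 19 under all alternatives that could be run. Members near 0.1 CPM rest on few reads, and 22 of 73 could not be tested.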
